A study of Homo sapiens with 24 samples.

Results

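The genes described here are 39 writers, erasers and readers of histone acetylation, together with the corepressor proteins that carry deacetylases to DNA. A gene belonged to the set if its symbol in the deposited count matrix was 1 of 39 named symbols, and all 39 were found among the 58051 genes of the matrix. They comprised 4 class I, 4 class IIa, 2 class IIb and 1 class IV histone deacetylases, 7 sirtuins, 9 acetyltransferases, 10 corepressor genes and 2 bromodomain readers. All 39 passed the filter on low counts that left 18852 genes for testing. RNA was sequenced from LUHMES cells, an immortalised human mesencephalic line, after differentiation into neurons with tetracycline, cAMP and the growth factor GDNF. Each of the 8 groups had 3 libraries, and every culture was exposed for 6 h. The vehicle group received 1% DMSO. The MS275 group received 5 µM of this benzamide (entinostat), a histone deacetylase inhibitor directed at class I. The other toxicant groups received Paraquat at 5 µM, MPP (methylphenylpyridinium, which dopamine neurons take up and which blocks complex I) at 5 µM, 2 µM Ziram (a zinc dithiocarbamate), 1 µM Rotenone (a complex I inhibitor), 1 µM 6-HD (hydroxydopamine) or 0.5 µM Methylmercury chloride. All stocks were made in DMSO, so every group carried the vehicle. All cultures came from 1 cell line, and each toxicant was given at 1 dose and 1 time.

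Acetylation of histone tails loosens the contact between nucleosomes and DNA and creates binding sites for bromodomain proteins. Acetyltransferases such as EP300, CREBBP and the MYST family (KAT5 to KAT8) add the mark using acetyl-CoA, and deacetylases remove it. Class I and II deacetylases depend on zinc, while sirtuins consume NAD+. Class I deacetylases have little activity on chromatin alone and work inside complexes: HDAC1 and HDAC2 with SIN3, MTA (NuRD) or RCOR (CoREST) proteins, and HDAC3 with NCOR1. REST recruits the RCOR and SIN3 complexes to neuronal genes outside neurons. Class IIa enzymes are shuttling repressors of MEF2 factors, and in neurons their position responds to activity.

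Library totals ranged from 9.69 to 46.9 megareads counted to genes, and the 39 genes together held 0.272% to 0.312% of the counts of a library. The unit CPM below means reads of the gene for each megaread of the TMM-scaled library. Genes are compared with each other only as CPM per kb of annotated exon. The 12 pan-neuronal markers were all at 1 CPM or more in DMSO. Of 12 dopaminergic markers, 7 reached that level, and LMX1A and FOXA2, defining factors of midbrain dopaminergic neurons, were at 0. All libraries of a group differed from each other beyond counting noise, and MS275 library 3, MPP library 3 and Rotenone library 1 stood furthest from the other libraries of their groups. The samples are described as biological triplicates with no word on separate differentiations, so p-values measure only the spread between these libraries. These are bulk samples, in which fewer cells of a type and less RNA per cell cannot be told apart.

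The promoters of 4 genes whose RNA differed under MS275 are shown because the set as a whole had promoters rich in GC. HDAC9 and RCOR1 rose, and SIRT1 and MTA2 fell. Each line holds the 250 bases before 1 RefSeq transcription start in GRCh38.p14, written 5′ to 3′ on the strand of the gene, with the GC box GGGCGG or its reverse complement CCGCCC in capitals. The window of HDAC9 is chr7:18086575-18086824 on the plus strand, that of RCOR1 chr14:102592399-102592648 on the plus strand, that of SIRT1 chr10:67884406-67884655 on the plus strand and that of MTA2 chr11:62601866-62602115 on the minus strand. RefSeq lists 5 starts for HDAC9 and 2 for MTA2, and gene counts do not tell which start was used. The windows shown hold no base in an exon of a protein-coding gene, and the farthest upstream was taken where several qualified.
HDAC9: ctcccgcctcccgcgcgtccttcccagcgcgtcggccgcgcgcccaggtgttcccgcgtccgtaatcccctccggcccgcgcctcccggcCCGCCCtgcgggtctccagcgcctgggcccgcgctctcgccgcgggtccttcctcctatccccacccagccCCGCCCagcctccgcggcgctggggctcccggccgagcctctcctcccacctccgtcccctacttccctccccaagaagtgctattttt
RCOR1: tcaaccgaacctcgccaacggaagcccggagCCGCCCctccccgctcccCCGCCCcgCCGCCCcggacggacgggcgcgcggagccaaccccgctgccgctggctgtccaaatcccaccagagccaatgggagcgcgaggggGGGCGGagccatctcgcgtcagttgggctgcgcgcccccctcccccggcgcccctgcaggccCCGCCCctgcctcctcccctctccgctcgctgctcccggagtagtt
SIRT1: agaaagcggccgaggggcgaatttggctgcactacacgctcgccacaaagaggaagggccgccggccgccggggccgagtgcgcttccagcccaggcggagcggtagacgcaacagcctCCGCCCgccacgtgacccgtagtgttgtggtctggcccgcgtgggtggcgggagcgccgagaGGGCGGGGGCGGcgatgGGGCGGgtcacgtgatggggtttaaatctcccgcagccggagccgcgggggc
MTA2: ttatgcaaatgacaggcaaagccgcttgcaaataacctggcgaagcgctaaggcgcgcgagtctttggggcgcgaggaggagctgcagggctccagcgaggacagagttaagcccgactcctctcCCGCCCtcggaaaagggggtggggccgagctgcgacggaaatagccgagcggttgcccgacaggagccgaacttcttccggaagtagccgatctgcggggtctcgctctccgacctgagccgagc
The window of RCOR1 holds 5 GC boxes, that of SIRT1 4, that of HDAC9 2 and that of MTA2 1 in the windows shown. The window of HDAC9 was the only 1 of its 5 with a GC box. The other 4 had G+C contents from 38.4% to 48.0%, against 75.2% in the window shown. RefSeq promoters were at hand for 34 of the 39 genes, 59 in all, and the 250 bases before each start were searched. Each start counts once, so HDAC4 and HDAC9 count 5 times, while 19 genes have 1 start. Some windows lie in exons of protein-coding genes, as for KAT5, EP300 and KAT2B. The promoters of all genes below were not limited to genes that passed the filter on low counts. The GC box was in 57.6% of these 59, on either strand, against 42.6% of 35116 promoters of all genes. The median number of CG dinucleotides was 24 in the set and 11 over all promoters, and the median G+C content was 67.2% and 58%. The CCAAT box was in 25.4% against 32.0%, TATAAA in 5.08% against 10.7%, the E-box CACGTG in 5.08% against 6.34%, and the cAMP response element TGACGTCA in 1.69% against 1.65%. The 3 promoters with an E-box belonged to HDAC4, SIRT1 and KAT5. These are descriptions of letters in a window, and no binding was measured.

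In vehicle-treated neurons the set spanned a wide range of levels per length of exon. This length joins the exons of all annotated transcripts, 15.5 kb for HDAC2, 4.24 kb for MTA2 and 2.74 kb for RCOR2. The order and the class I share below depend on it: in CPM, HDAC2 held 624, MTA2 214 and RCOR2 156. Gene counts do not tell which transcripts were present. RCOR2, a member of the CoREST family, was highest, at 56.9 ± 2.34 CPM per kb (SD, n = 3). MTA2, a NuRD subunit, followed at 50.6 ± 1.32 CPM per kb and HDAC2 at 40.4 ± 0.355 CPM per kb. The ranges of these 3 did not overlap with each other or with BRD2, the next gene, at 20.8 ± 1.05 CPM per kb. HDAC2 made up 58.0% ± 1.16 of the summed class I level, against which HDAC1 stood at 13.3 ± 0.621 and HDAC3 at 14.2 ± 0.567 CPM per kb. HDAC5 was the leading class IIa enzyme, at 16.6 ± 1.13 CPM per kb. Its relatives HDAC4, HDAC7 and HDAC9 held 2.04 ± 0.257, 1.29 ± 0.0619 and 0.713 ± 0.0613 CPM per kb. From HDAC3, the sixth gene in the order, down to SIRT1, the thirteenth, the ranges of neighbours overlapped. HDAC10 was lowest, at 0.0964 ± 0.0373 CPM per kb, and 55.8% of its annotated exon length is shared with MAPK12 on the same strand, so its count is uncertain. Among sirtuins, SIRT2, a mostly cytoplasmic tubulin deacetylase, held 14.2 ± 0.796 and SIRT1, a nuclear enzyme, 11.3 ± 0.457 CPM per kb. REST, which is kept low in neurons, was at 2.44 ± 0.283 CPM per kb. The plot of vehicle levels shows the 3 libraries of each gene.

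**Figure D1:**
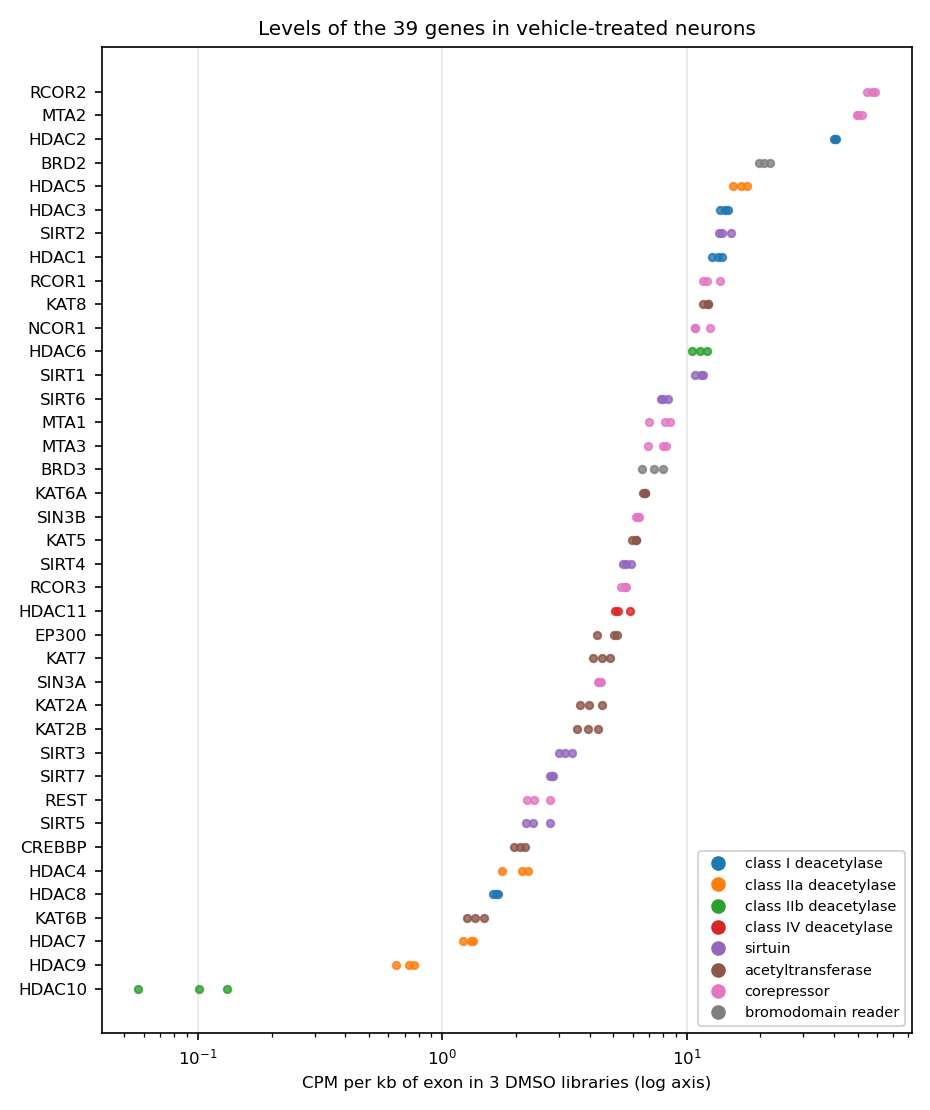
CPM per kb of exon (x axis, log scale) of each of the 39 genes (y axis, ordered by mean) in the 3 DMSO libraries, 1 point per library, coloured by class. RCOR2, MTA2 and HDAC2 stand above the rest, and HDAC10 lies apart at the bottom.

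Across the 7 comparisons with DMSO, 15 of the 39 genes passed the test in none, 21 in 1 and 3 in 2. The test was edgeR's quasi-likelihood F test with Benjamini-Hochberg adjustment over 18852 genes, and a gene is said to rise or fall only where its adjusted p was under 0.05. All 7 comparisons share the same 3 DMSO libraries. MS275 changed 20 genes of the set (51.3%, against 43.2% of all genes tested), MPP changed 6 (15.4%, against 10.8%) and Rotenone changed 1 (2.56%, against 5.52%). Paraquat, Ziram, 6-HD and Methylmercury changed 0, where 0%, 0.53%, 0.0106% and 0.286% of all genes tested were called. RCOR3 and NCOR1 fell under MS275 and rose under MPP, and MTA1 rose under both MPP and Rotenone. The map of fold changes shows where these calls lie.

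**Figure D2:**
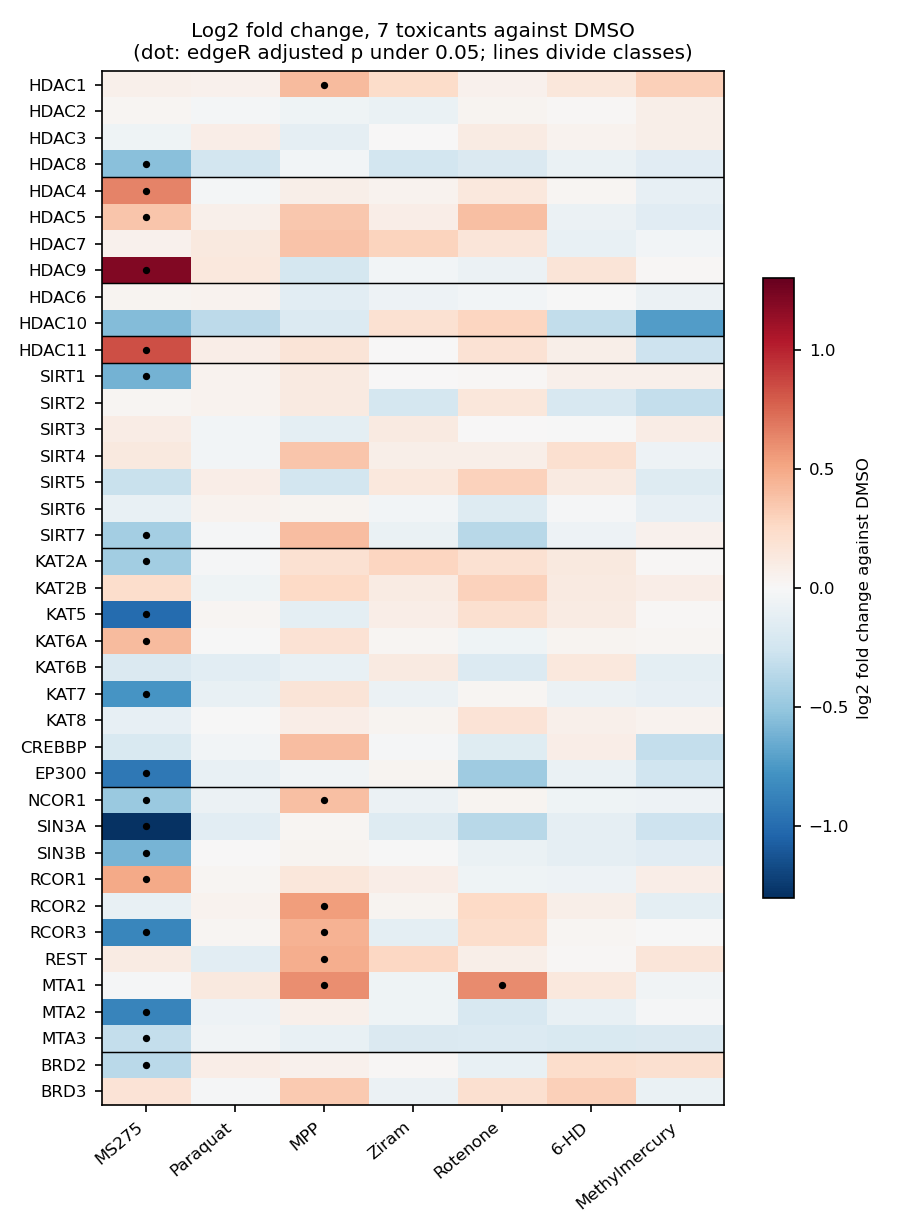
Log2 fold change against DMSO (colour) of the 39 genes (rows, grouped by class) under 7 toxicants (columns), with a dot where the edgeR adjusted p was under 0.05. The MS275 column holds 20 dots, MPP 6 and Rotenone 1.

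Under MS275, 6 genes of the set rose (15.4%, against 20.1% of all genes tested) and 14 fell (35.9%, against 23% of all genes). HDAC9, HDAC11, HDAC4, RCOR1, KAT6A and HDAC5 rose. SIN3A, KAT5, EP300, MTA2, RCOR3, KAT7, SIRT1, SIN3B, HDAC8, NCOR1, KAT2A, SIRT7, BRD2 and MTA3 fell. The median log2 fold change of the 39 genes was -0.10, against 0.04 over all genes tested. The MS275 and DMSO libraries did not overlap for 20 of the 39 genes (51.3%) and for 55.6% of all genes tested.

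Of the 4 class I deacetylases, none rose and 1 fell (25%, against 23% of all genes tested). HDAC1 held 50.2, 53.2 and 55.1 CPM in DMSO libraries 1 to 3 and 62.1, 57.4 and 46.8 CPM in MS275 libraries 1 to 3. HDAC2 held 629, 618 and 624 CPM and 602, 617 and 686 CPM, and HDAC3 63.2, 66.2 and 68.4 CPM and 62.9, 72.8 and 53.5 CPM, in the same order. The groups overlapped for all 3 genes. Their folds were 1.05, 1.02 and 0.959, with 95% intervals of 0.916 to 1.20, 0.929 to 1.11 and 0.836 to 1.10. HDAC8, a class I enzyme that is active without a corepressor complex, fell from 36.9, 38.97 and 37.9 CPM to 23.7, 28.6 and 25.9 CPM, a log2 fold change of -0.54 (SE 0.11, edgeR adjusted p = 0.000251). All 3 treated libraries lay below all 3 controls. The summed level of class I was 69.6 ± 1.04 CPM per kb in DMSO and 69.8 ± 1.35 CPM per kb in MS275.

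Of the 4 class IIa deacetylases, 3 rose (75%, against 20.1% of all genes tested) and none fell. HDAC9 held 12.3, 12.8 and 10.9 CPM in DMSO and 25.7, 27.5 and 29.5 CPM in MS275. Every treated library was above every control, and the fold was 2.30 (95% interval 1.86 to 2.85, log2 fold change 1.20, edgeR adjusted p = 1.6e-07). The gene lies on chromosome 7 from 18086949 to 19002416 (GRCh38, GENCODE 29). HDAC4 rose from 30.0, 23.4 and 28.4 CPM to 40.9, 39.2 and 47.5 CPM, with the groups apart (log2 fold change 0.64, SE 0.13, edgeR adjusted p = 0.000132). HDAC5, the most abundant of the class per length, had means of 126 ± 8.63 and 162 ± 16.98 CPM (SD, n = 3), a fold of 1.29 (edgeR adjusted p = 0.0225). Its call was lost without DMSO replicate 1, DMSO replicate 3 or MS275 replicate 2, with the highest adjusted p at 0.131. HDAC7 had a fold of 1.04 (95% interval 0.841 to 1.28) and was not called. The summed class IIa level was 20.6 ± 1.04 CPM per kb in DMSO and 27.4 ± 2.10 CPM per kb in MS275. Most of this difference came from HDAC5, at 16.6 CPM per kb in DMSO and 21.3 CPM per kb in MS275.

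HDAC11, the only class IV deacetylase and an enzyme that also removes long fatty acyl groups, rose from 26.8, 30.8 and 27.6 CPM to 52.2, 56.8 and 43.3 CPM. The lowest treated library was above the highest control, and the fold was 1.79 (95% interval 1.495 to 2.14, edgeR adjusted p = 3.24e-06). Neither class IIb gene was called. HDAC6, the tubulin deacetylase, had means of 119.7 ± 8.19 and 122 ± 7.19 CPM, with a 95% interval of the fold of 0.887 to 1.18. HDAC10, a polyamine deacetylase, was under 1 CPM in every DMSO and MS275 library, and its interval of 0.269 to 1.69 allows both a fall and a rise.

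Among the 7 sirtuins, SIRT1 and SIRT7 fell (28.6%, against 23% of all genes tested) and none rose. SIRT1 went from 52.9, 49.0 and 52.1 CPM to 30.6, 33.9 and 36.0 CPM, with no overlap, and its log2 fold change was -0.62 (SE 0.10, edgeR adjusted p = 1.5e-05). SIRT7, a nucleolar deacetylase, had means of 17.2 ± 0.198 and 12.6 ± 2.79 CPM (log2 fold change -0.44, edgeR adjusted p = 0.0186). The call of SIRT7 was lost without MS275 replicate 3 (log2 fold change -0.29, adjusted p = 0.129) and without DMSO replicate 2. The mitochondrial SIRT3, SIRT4 and SIRT5 and the other two, SIRT2 and SIRT6, were not called, with log2 fold changes from -0.29 (SIRT5) to 0.13 (SIRT4). NAMPT, which makes the precursor of NAD+ that sirtuins consume and is no member of the set, fell from 29.3 to 14.8 CPM (log2 fold change -0.99, edgeR adjusted p = 8.13e-08) and is named after its values were seen. It was 1 of 3 genes that fell among 11 of acetyl-CoA and NAD+ supply. Of the same 11 genes 4 rose, with NMRK1 and NAPRT at log2 fold changes of 1.19 and 1.16.

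Of 9 acetyltransferases, KAT6A rose (11.1%, against 20.1% of all genes tested). KAT5, EP300, KAT7 and KAT2A fell (44.4%, against 23% of all genes), and 4 were not called. KAT5 (TIP60), the catalytic subunit of the NuA4 complex, held 23.1, 23.2 and 22.2 CPM in DMSO and 13.5, 11.5 and 8.84 CPM in MS275. Its fold was 0.5 (95% interval 0.409 to 0.611, edgeR adjusted p = 1.18e-06), and the groups did not overlap. The exons of KAT5 (chromosome 11, 65711996 to 65719604) share 38.6% of their length with RNASEH2C on the opposite strand, which had 41.4 CPM in DMSO and 43.9 in MS275 (log2 fold change 0.10, edgeR adjusted p = 0.564). Whether the counting kept the strands apart is not given in the sources used here. KAT7 (HBO1), linked to replication origins, fell from 57.1, 53.1 and 48.7 CPM to 31.1, 30.7 and 31.7 CPM, a log2 fold change of -0.76 (SE 0.092, edgeR adjusted p = 7.53e-08). The 3 treated libraries lay close together and below all controls.

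EP300 and CREBBP are paralogous coactivators with a bromodomain of their own, and EP300 alone of the pair was called. EP300 held 53.6, 63.0 and 65.0 CPM in DMSO and 29.4, 23.7 and 43.6 CPM in MS275, a log2 fold change of -0.93 (SE 0.16, edgeR adjusted p = 2.17e-05). CREBBP held 30.4, 32.3 and 33.7 CPM and 24.3, 18.9 and 42.2 CPM and was not called (edgeR adjusted p = 0.438). MS275 library 3 was the highest treated library for both genes. Without it CREBBP was called as well, with a log2 fold change of -0.58 (adjusted p = 0.00735), and so was KAT6B, at -0.38 (adjusted p = 0.00987). KAT2A (GCN5), a subunit of SAGA, fell from 13.7, 15.0 and 16.97 CPM to 12.96, 10.4 and 10.2 CPM (log2 fold change -0.45, edgeR adjusted p = 0.0103), and the call was lost without DMSO replicate 3 (adjusted p = 0.0921) or MS275 replicate 2 (adjusted p = 0.0572). Its paralog KAT2B (PCAF) had a log2 fold change of 0.23 (95% interval -0.086 to 0.55) and was not called. KAT6A, a MYST enzyme, rose from means of 162 ± 1.70 to 215 ± 24.9 CPM (edgeR adjusted p = 0.00109). KAT8, the MYST enzyme of the MSL and NSL complexes, had a log2 fold change of -0.11 (95% interval -0.31 to 0.095).

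The corepressor genes, the largest class, held the largest number of falls, 6 of 10 (60%, against 23% of all genes tested). They held 1 rise (10%, against 20.1% of all genes). SIN3A, the scaffold that binds HDAC1 and HDAC2, had the largest fall of the set and lies on chromosome 15 from 75369379 to 75455842. It held 55.7, 53.8 and 54.6 CPM in DMSO and 20.3, 20.3 and 27.1 CPM in MS275. All treated libraries were below all controls, and the fold was 0.41 (95% interval 0.344 to 0.488, log2 fold change -1.29, edgeR adjusted p = 1.24e-09). SIN3B, its paralog, fell from 55.4, 54.4 and 56.1 CPM to 36.9, 37.2 and 35.0 CPM, with a log2 fold change of -0.60 ± 0.09 (SE; edgeR adjusted p = 2.5e-06).

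MTA2, the most abundant NuRD subunit of the set per length, fell from 210.4, 221 and 212 CPM to 121, 125 and 109 CPM, with no overlap. Its log2 fold change was -0.85 (SE 0.079), and its edgeR adjusted p of 6.01e-10 was the lowest in the set. MTA1 had a fold of 0.993 (95% interval 0.843 to 1.17) and was not called. MTA3 fell from means of 81.6 ± 7.02 to 65.9 ± 5.08 CPM (log2 fold change -0.31, edgeR adjusted p = 0.00693), a call lost without MS275 replicate 1 (adjusted p = 0.0674).

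The CoREST family went in different directions under MS275. RCOR1 rose from 72.4, 75.0 and 84.7 CPM to 105, 102 and 120.3 CPM, with a log2 fold change of 0.49 ± 0.10 (SE; edgeR adjusted p = 0.000271). RCOR3 fell from 51.2, 49.1 and 50.7 CPM to 24.5, 25.3 and 34.8 CPM, with a log2 fold change of -0.85 ± 0.12 (SE; edgeR adjusted p = 1.81e-06). Neither gene had overlapping groups. RCOR2 had a log2 fold change of -0.10 (95% interval -0.31 to 0.11) and REST one of 0.11 (95% interval -0.18 to 0.40), and neither was called. NCOR1, which activates HDAC3, fell from 191, 166 and 166 CPM to 115, 105 and 155 CPM, a log2 fold change of -0.48 (edgeR adjusted p = 0.000458). The highest treated library, library 3, was still below the lowest control. The summed level of the 10 corepressor genes was 165.5 ± 1.88 CPM per kb in DMSO and 133 ± 2.83 CPM per kb in MS275. Most of this difference came from MTA2, at 50.6 CPM per kb in DMSO and 28.0 CPM per kb in MS275.

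Of the 2 readers, both BET proteins that bind acetylated histones, BRD2 fell from means of 152 ± 7.72 to 120.1 ± 4.31 CPM (log2 fold change -0.35, edgeR adjusted p = 0.0003). BRD3 had a log2 fold change of 0.17 (95% interval -0.095 to 0.44) and was not called. The plot of intervals by class places these 39 values side by side, and the plot of libraries shows the 20 called genes.

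**Figure D3:**
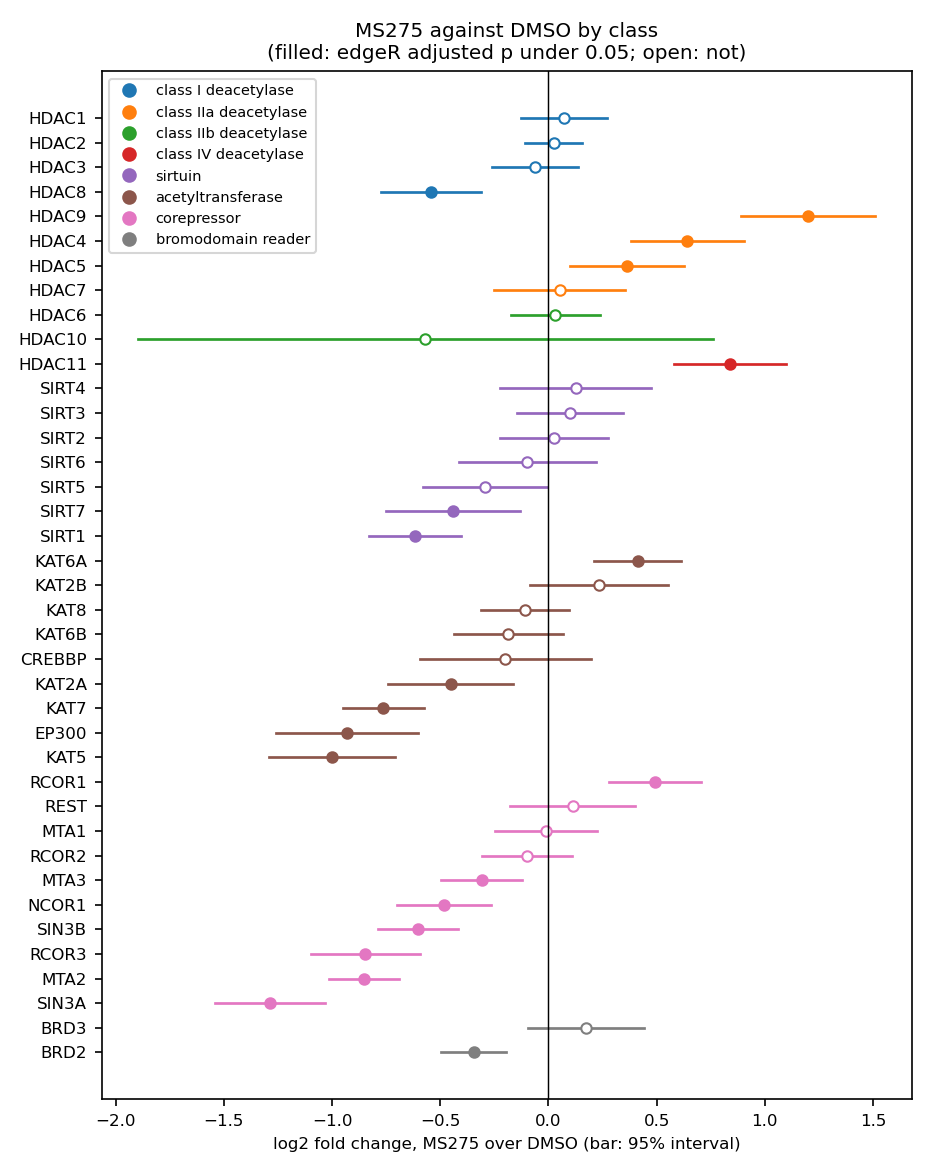
Log2 fold change of MS275 over DMSO (x axis) for each of the 39 genes (y axis, by class), with 95% intervals as bars and filled points where the edgeR adjusted p was under 0.05. HDAC1, HDAC2 and HDAC3 lie near 0, 3 of the 4 class IIa points and HDAC11 to the right, and most corepressor points to the left.

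**Figure D4:**
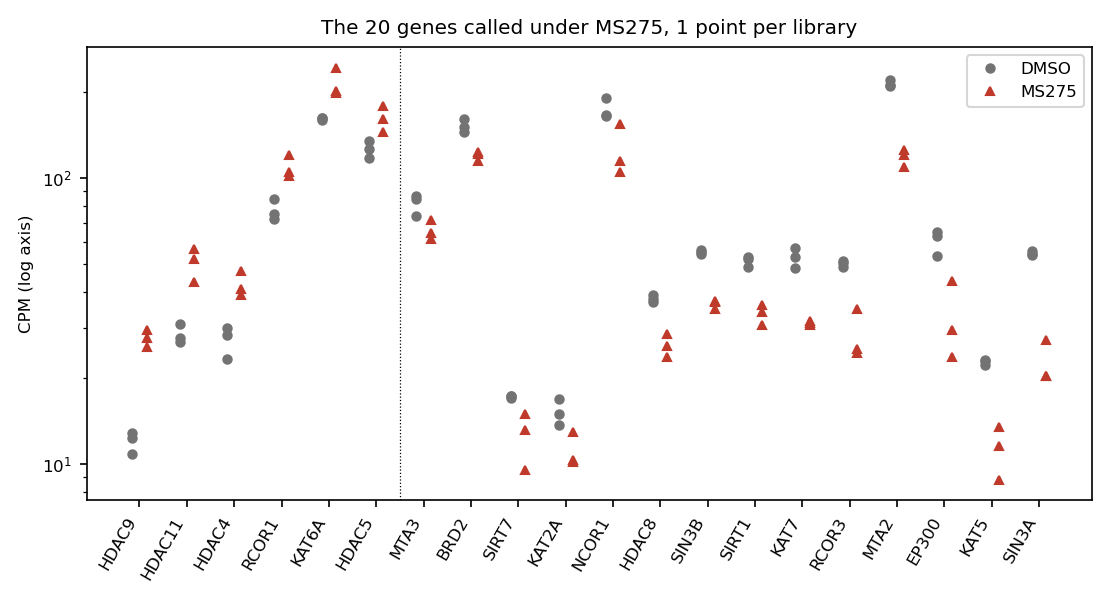
CPM (y axis, log scale) of the 20 genes called under MS275 in the 3 DMSO libraries (circles) and the 3 MS275 libraries (triangles), ordered by fold change. The 6 genes left of the dotted line rose and the 14 to the right fell.

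The balance between close relatives was measured as the log2 ratio of CPM within each library. These 9 pairs were chosen after the values were seen. The ratio of RCOR1 to RCOR3 was 0.62 ± 0.12 in DMSO and 1.97 ± 0.16 in MS275, a difference of 1.35. The ratio of SIN3B to SIN3A was 0.02 ± 0.025 in DMSO and 0.70 ± 0.29 in MS275. That of CREBBP to EP300 was -0.91 ± 0.078 in DMSO and -0.21 ± 0.15 in MS275, that of MTA1 to MTA2 -1.97 ± 0.15 and -1.13 ± 0.090, and that of KAT2B to KAT2A 0.54 ± 0.016 and 1.24 ± 0.36. HDAC9 went from -0.09 ± 0.15 to 1.08 ± 0.33 relative to HDAC7. KAT6A to KAT6B, BRD3 to BRD2 and HDAC2 to HDAC8 differed by 0.60, 0.51 and 0.57. Because of how the pairs were chosen these ratios are a description, with no test.

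Other genes of the same pathways, from lists that exclude the 39, also held more falls than rises under MS275 in 3 lists. Of 32 other acetyltransferases and subunits of their complexes, 1 rose and 16 fell, with a median log2 fold change of -0.25. MSL1, the scaffold of the MSL complex, went from 134 to 58.3 CPM (log2 fold change -1.21), HAT1, which acetylates newly made histones, from 20.7 to 9.94 CPM (-1.08), MEAF6 from 79.8 to 38.2 CPM (-1.07), and EPC1 had a log2 fold change of -0.73. Of 34 other subunits of deacetylase complexes, 5 rose and 18 fell, with a median of -0.29. ING2, a SIN3 subunit that reads histone methylation, fell from 6.40 to 1.56 CPM (log2 fold change -2.06), ARID4A by 1.59 and SAP30 by 1.40 on the log2 scale, while CHD5, a neuronal NuRD helicase, rose from 0.182 to 1.19 CPM (2.51). Of 24 other bromodomain and YEATS readers, none rose and 15 fell, with a median of -0.41, led by ZMYND11, ATAD2B, BAZ1A and TAF1 at -1.15, -1.14, -1.02 and -0.84. Over all genes tested the median was 0.04, with 20.1% rising and 23% falling.

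Among 11 genes of acetyl-CoA and NAD+ supply, 4 rose and 3 fell, where 20.1% of all genes tested rose and 23% fell. ACSS1, the mitochondrial acetyl-CoA synthetase, rose from 0.481 to 4.35 CPM (log2 fold change 3.13), NMRK1, a nicotinamide riboside kinase, from 14.5 to 33.2 CPM (1.19), NAPRT by 1.16 and NNMT by 1.01 on the log2 scale. Of 3 MEF2 factors tested, the targets of class IIa deacetylases, MEF2C and MEF2A rose, from 41.0 to 64.2 CPM and from 77.0 to 115 CPM, and MEF2D was not called. Of 16 known REST targets, SYN1, CHGA and L1CAM rose by 0.57, 0.55 and 0.46 on the log2 scale, SCN2A fell by 0.84, and 12 were not called. Over all genes tested 43.2% were called, so these counts do not set the REST targets apart.

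Marker genes of other cell states moved with MS275 as well, where 20.1% of all genes tested rose and 23% fell. Of 12 cycling markers, 8 fell and none rose, and their summed level ranged from 440 to 485 CPM in MS275 against 537 to 575 CPM in DMSO. TOP2A, CDK1 and MKI67, not called, had means of 158, 47.3 and 24.4 CPM in MS275 against 141, 36.9 and 22.9 CPM in DMSO. AURKB, also not called, had a lower mean in MS275. Of 10 neural precursor markers, 6 rose and 1 fell (272 to 299.9 CPM summed, against 200 to 223 CPM). Of 10 astrocyte and oligodendrocyte markers tested, 7 rose and none fell (206 to 238 CPM against 184 to 199 CPM), with SOX10, which defines oligodendrocytes, at 0. Of 9 dopaminergic markers tested, 6 rose and 1 fell (1043 to 1256 CPM against 654 to 773 CPM), and of 12 pan-neuronal markers 2 rose and none fell. Their part in the results of the 39 genes was not tested.

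MPP raised 6 genes of the set (15.4%, against 5.77% of all genes tested that rose) and lowered none (5.02% of all genes fell). MTA1, RCOR2, REST, RCOR3 and NCOR1, 5 of the 10 corepressor genes, and HDAC1 rose. MTA1 held 59.2, 56.5 and 48.7 CPM in DMSO and 88.0, 85.2 and 76.2 CPM in MPP, a fold of 1.52 (95% interval 1.29 to 1.79, edgeR adjusted p = 0.000548). RCOR2, the most abundant gene of the set per length, went from 149, 157 and 161 CPM to 234, 253 and 192 CPM, with a log2 fold change of 0.54 ± 0.10 (SE; edgeR adjusted p = 0.000535). Both genes were higher in all 3 MPP libraries than in any control. REST, the repressor of neuronal genes, held 17.6, 18.9 and 22.03 CPM in DMSO and 27.0, 27.0 and 27.8 CPM in MPP (log2 fold change 0.48, edgeR adjusted p = 0.0234). RCOR3 held 51.2, 49.1 and 50.7 CPM and 68.4, 66.3 and 71.5 CPM (log2 fold change 0.45, edgeR adjusted p = 0.013). Neither REST nor RCOR3 had overlapping groups. HDAC1 held 50.2, 53.2 and 55.1 CPM in DMSO and 72.4, 67.9 and 70.4 CPM in MPP (log2 fold change 0.41, edgeR adjusted p = 0.005). NCOR1 held 191, 166 and 166 CPM and 216, 224 and 246 CPM (log2 fold change 0.39, edgeR adjusted p = 0.0135), again with no overlap. RCOR1, HDAC2, SIN3A and SIN3B were not called under MPP (log2 fold changes 0.15, -0.055, 0.021 and 0.036). A joint change of the parts of a complex was not tested. Non-overlapping groups were found for 16 of the 39 genes and for 36.3% of all genes tested. The summed corepressor level was 205.5 ± 12.6 CPM per kb in MPP, against 165.5 ± 1.88 CPM per kb in DMSO. Most of this difference came from RCOR2, at 82.7 CPM per kb in MPP and 56.9 CPM per kb in DMSO.

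**Figure D5:**
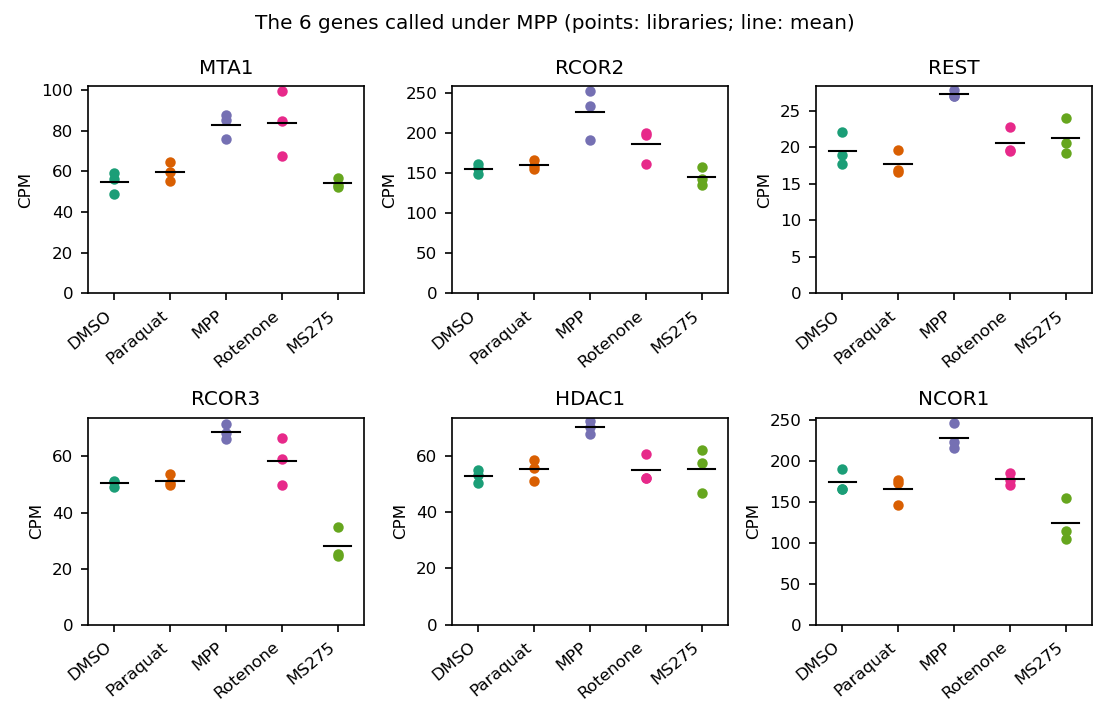
CPM (y axis, from 0) of the 6 genes called under MPP, 1 panel per gene, in the 3 libraries of DMSO, Paraquat, MPP, Rotenone and MS275, with the mean as a line. The MPP points lie above all DMSO and Paraquat points in every panel, and the means of RCOR3 and NCOR1 are lowest in MS275.

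The count under MPP depended on the scaling and on single libraries. With library totals in place of TMM scaling, 3 genes were called, and NCOR1, RCOR3 and REST were lost (adjusted p = 0.0554, 0.0545 and 0.0865), while the share of rising genes among all calls went from 53.5% to 27.5%. The 10 most abundant genes took 8.22% to 10.4% of the counts of an MPP library and 4.94% to 5.88% of a DMSO library, and the part of this in the result was not tested. Without DMSO replicate 2, 3 genes were called. The call of REST was also lost without DMSO replicate 1 or 2 and without any 1 of the MPP replicates (edgeR adjusted p from 0.0582 to 0.124). That of NCOR1 was lost without DMSO replicate 2, DMSO replicate 3 or MPP replicate 3, and that of RCOR3 without DMSO replicate 2. Of 72 values for the 6 genes under the alternatives, 12 lost the call and 0 changed sign, and 3 genes never lost it. With the 2 groups fitted alone 11 were called, all higher, with CREBBP, HDAC5, HDAC7, SIRT7 and BRD3 added to the 6. MTA1 shares 3.76% of its exon length with TEX22 on the same strand and 4.35% with an antisense gene.

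Genes of these pathways outside the set were also measured under MPP, where 10.8% of all genes tested were called. Among the other subunits of deacetylase complexes, GATAD2A, a NuRD subunit, rose by 0.35 on the log2 scale (edgeR adjusted p = 0.0101), and none of 34 fell. Of 32 other acetyltransferase genes, 2 rose and 2 fell, and of 24 other readers 2 rose and YEATS4 fell (log2 fold change -0.53). NAMPT rose by 0.35 and ACSS2 fell by 0.34 on the log2 scale among the genes of acetyl-CoA and NAD+ supply. Among the 16 REST targets, BDNF rose by 1.35 and SYT4 by 0.54 on the log2 scale, and SCN2A fell by 0.58 and CHRNB2 by 0.36. None of the 3 MEF2 factors was called. Markers of cell types moved with MPP too. Of 9 dopaminergic markers tested, DDC and TH fell by 1.39 and 0.68 on the log2 scale and none rose (749.7 to 889.8 CPM summed, against 654 to 773 CPM in DMSO). Of 10 neural precursor markers, VIM rose by 0.34 on the log2 scale and HES1 fell from 2.53 to 1.04 CPM (231 to 242 CPM summed, against 200 to 223 CPM). Of 10 astrocyte and oligodendrocyte markers tested, SLC1A3 rose by 1.22 on the log2 scale and none fell (188 to 193 CPM summed, against 184 to 199 CPM), with SOX10 at 0. Of 12 pan-neuronal markers RBFOX3 rose by 0.39 on the log2 scale and none fell, and none of 12 cycling markers was called. Their part in the results of the 39 genes was not tested.

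Rotenone, which like MPP inhibits complex I, raised 1 gene of the set (2.76% of all genes tested rose) and lowered none (2.76% of all genes fell). MTA1 held 59.2, 56.5 and 48.7 CPM in DMSO and 67.8, 99.6 and 84.8 CPM in Rotenone, with all treated libraries above all controls. Groups did not overlap for 8 of the 39 genes and for 20.9% of all genes tested. The fold of MTA1 was 1.53 (95% interval 1.299 to 1.80, edgeR adjusted p = 0.00113). With the 2 groups fitted alone MTA1 was not called (adjusted p = 0.0616), and without Rotenone replicate 1, which stood apart, 4 genes were called: MTA1, HDAC5 and RCOR2 higher and SIN3A lower. HDAC5 held 126, 135 and 117 CPM in DMSO and 126, 176 and 195 CPM in Rotenone, and SIN3A 55.7, 53.8 and 54.6 CPM and 46.1, 35.9 and 45.6 CPM, and neither was called with all libraries (adjusted p = 0.0728 and 0.0807). The MPP and Rotenone comparisons share their DMSO libraries, and the doses differ, so their values for MTA1 stand side by side only. Among the 16 REST targets BDNF rose by 1.67 and SYT4 by 0.59 on the log2 scale, and SCN2A and CHRNB2 fell by 0.47 and 0.38. Of 10 neural precursor markers, NES and VIM rose by 0.94 and 0.41 and SOX1 fell by 2.25 on the log2 scale, and their summed level was 271 to 322 CPM, against 200 to 223 CPM in DMSO. MBP, of 10 astrocyte and oligodendrocyte markers tested (189.6 to 209.6 CPM summed, against 184 to 199 CPM, with SOX10 at 0), rose by 0.94 on the log2 scale. SLC6A3, of 9 dopaminergic markers tested (900.2 to 1245 CPM summed, against 654 to 773 CPM), rose by 0.72, and RBFOX3, of 12 pan-neuronal markers, by 0.45 on the log2 scale. None of the other markers in these lists, and none of 12 cycling markers, was called. Their part in the result of MTA1 was not tested.

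Paraquat, Ziram, 6-HD and Methylmercury left every gene of the set uncalled in the edgeR fit over all 24 libraries. With the 2 groups fitted alone, SIRT2 was called as lower under Ziram (log2 fold change -0.23, adjusted p = 0.0431). Of all genes tested, 0.408% rose and 0.122% fell under Ziram, 0.0106% rose and 0% fell under 6-HD, and 0.223% rose and 0.0637% fell under Methylmercury. The libraries did not overlap with DMSO for 3, 10, 6 and 6 of the 39 genes under Paraquat, Ziram, 6-HD and Methylmercury, and for 8.57%, 21.2%, 13% and 19.9% of all genes. At an unadjusted p under 0.05 the counts were 1, 3, 3 and 5 of 39. DESeq2 called 0, 0, 0 and 2, the 2 being HDAC1 and BRD2 under Methylmercury. The largest log2 fold changes apart from HDAC10 were -0.24 for HDAC8 under Paraquat, 0.29 for HDAC7 under Ziram, 0.31 for BRD3 under 6-HD and 0.31 for HDAC1 under Methylmercury. For 38 of the 38 genes other than HDAC10, the 95% interval lay within 1.5-fold of no change under Paraquat, Ziram and 6-HD, and for 37 of 38 under Methylmercury. Class sums per kb in these groups ranged from 69.3 to 75.7 for class I, from 18.8 to 21.9 for class IIa and from 158 to 165 for corepressors, against 69.6, 20.6 and 165.5 in DMSO. HDAC1 held 65.8 ± 2.20 CPM under Methylmercury and 52.8 ± 2.46 CPM in DMSO, a 95% interval of the log2 fold change of 0.12 to 0.51 (adjusted p = 0.169).

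MS275, MPP and Paraquat shared a dose, 5 µM, and an exposure of 6 h, and can be set against each other without the controls. An equal dose in µM need not be equal in effect, and Paraquat against DMSO had 0% of all genes called. These comparisons reuse the toxicant libraries of the comparisons with DMSO, so calls that recur are not independent. The p-values were adjusted over all genes within each of these 3 comparisons. Between MS275 and MPP, 22 of the 39 genes differed (56.4%, against 50.8% of all genes), 4 higher and 18 lower in MS275, where 24.9% of all genes were higher and 25.9% lower. Groups did not overlap for 22 of the 39 genes and 59.7% of all genes. The lower ones included 8 of the 10 corepressor genes. RCOR3 held 24.5, 25.3 and 34.8 CPM in MS275 and 68.4, 66.3 and 71.5 CPM in MPP, a log2 difference of -1.29 (SE 0.12, edgeR adjusted p = 6.92e-10). SIN3A held 51.8, 55.3 and 59.5 CPM, MTA2 231, 230.4 and 214 CPM, KAT7 58.6, 61.9 and 57.2 CPM and EP300 49.9, 60.5 and 65.8 CPM in MPP. Their log2 differences were -1.31, -0.92, -0.93 and -0.88, all lower in MS275 and with no overlap with the MS275 values above. HDAC9 held 9.50, 10.8 and 10.3 CPM in MPP and was higher in MS275 by 1.43 on the log2 scale (SE 0.15, edgeR adjusted p = 5.1e-09). HDAC1 was lower in MS275 than in MPP by a log2 difference of -0.34 (edgeR adjusted p = 0.0042). With library totals 8 genes were higher and 16 lower, the calls of HDAC1 and REST were lost (adjusted p = 0.0575 and 0.148), the median of all genes moved from 0.06 to 0.17 and the share of higher calls among all genes from 49.0% to 59.0%.

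Between MS275 and Paraquat, 20 of the 39 genes differed (51.3%, against 43.4% of all genes), 5 higher and 15 lower in MS275, where 20.4% of all genes were higher and 23% lower. Groups did not overlap for 18 of the 39 genes and 53.9% of all genes. HDAC9 held 12.8, 12.4 and 14.3 CPM in Paraquat and was higher in MS275 by 1.07 on the log2 scale. SIN3A held 47.2, 49.0 and 52.5 CPM, KAT5 24.0, 21.4 and 24.4 CPM, RCOR3 53.8, 50.6 and 49.6 CPM, EP300 60.4, 51.7 and 58.5 CPM and MTA2 208, 204 and 201 CPM in Paraquat. Their log2 differences were -1.15, -1.03, -0.87, -0.83 and -0.78, with edgeR adjusted p-values up to 9.34e-05. The libraries of these 6 genes did not overlap between the 2 toxicants.

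Between MPP and Paraquat, 6 genes were higher in MPP and none lower (15.4%, against 11% of all genes called, 6.04% higher and 4.94% lower). Groups did not overlap for 17 of the 39 genes and 34% of all genes. REST held 16.6, 19.7 and 16.9 CPM in Paraquat and was higher in MPP by 0.61 on the log2 scale (edgeR adjusted p = 0.00371). RCOR2 held 166, 159 and 156 CPM, MTA1 64.5, 55.4 and 59.6 CPM, NCOR1 173, 146 and 177 CPM, RCOR3 53.8, 50.6 and 49.6 CPM and HDAC1 58.6, 55.9 and 51.1 CPM in Paraquat. These were higher in MPP by 0.50, 0.48, 0.47, 0.42 and 0.35 on the log2 scale, with edgeR adjusted p-values from 0.00136 to 0.0202. With library totals 4 were higher and 2 lower in MPP: HDAC1 and RCOR3 were no longer called, HDAC3 and SIRT5 were called as lower, and the share of higher calls among all genes went from 55.0% to 26.5%.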

How the data were processed

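The 39 genes, the 11 further gene lists and the 9 ratios were chosen with earlier results of these data known. Per the labels' protocols, polyadenylated RNA was selected, depleted of ribosomal RNA and made into Illumina TruSeq libraries. The submitters' processing notes name STAR, HTSeq, DESeq and the GRCh38 build. Their versions, the annotation and the strand setting are not stated there. The deposited raw counts per gene were used, and the deposited normalized matrix was not.

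Counts were fitted with edgeR 4.0.16 (R 4.3.3): TMM scaling, default expression filter (18852 of 58051 genes), 1 coefficient per group over 24 libraries, 16 residual degrees of freedom, quasi-likelihood F test, Benjamini-Hochberg adjustment per comparison at 0.05. The fit was also run on simulated counts with few changed genes, balanced in direction, and the same spread in every group. That setting differs from MS275, where 43.2% of all genes were called, so it cannot vouch for the fit there. Alternatives were RLE size factors, library totals, no filter, DESeq2 1.42.0, the 2 groups alone, a replicate block and leaving out each replicate. Full library values are given for up to 15 called genes under MS275 and 6 elsewhere, by fold change, and up to 4 genes per further list, and, chosen after their values were seen, HDAC1, HDAC2, HDAC3 and CREBBP under MS275 and HDAC5 and SIN3A under Rotenone. The values of 1 gene of these lists are not reported here. Exon lengths and coordinates came from GENCODE 29, promoters from RefSeq GRCh38.p14. KAT2A shares 10.7% and HDAC8 5.19% of exon length with another protein-coding gene on the same strand. Library totals were 9.69 to 46.9 megareads, which bounds the counting precision.

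Replicate numbers are shared between groups. Same-numbered libraries deviated together, with every correlation over 0.1, in 2 of 10 comparisons: MS275 against DMSO (0.151, 0.170 and 0.209) and MS275 against Paraquat (0.165, 0.112 and 0.177). The pairing comes from this check, not from the labels, and the block changed no call of the 39 genes there. MS275 against MPP gave 0.411, 0.0590 and 0.502 and missed the rule through replicate number 2.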

Additional observations from a re-analysis of the deposited data

How the results depend on the processing

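Under MS275 against DMSO the same 20 genes were called, 6 higher and 14 lower, with RLE size factors, library totals, no filter, the replicate block, DESeq2 and the 2 groups alone, and leaving out 1 library gave 18 to 21. Of 240 values for the 20 genes under these alternatives, 8 lost the call and none changed sign, and 16 genes never lost it. Under MPP the count of 6 became 3 with library totals and 11 with the 2 groups alone, 9 with no filter, and 3 to 5 without 1 library (3 without DMSO replicate 2). Under Rotenone the count of 1 became 3 with no filter (MTA1 and HDAC5 higher, EP300 lower), 2 with DESeq2 and 0 with the 2 groups alone, and ranged from 1 to 4 without 1 library, with 4 without Rotenone replicate 1 and 2 without Rotenone replicate 3. Ziram gave 1 with the 2 groups alone (SIRT2 lower) and Methylmercury 2 with DESeq2. MPP against Paraquat gave 12 in place of 6 with the 2 groups alone, and 4 to 6 without 1 library. MS275 against MPP ranged from 21 to 25 and MS275 against Paraquat from 16 to 19 without 1 library. Of 264, 240 and 72 values in MS275 against MPP, MS275 against Paraquat and MPP against Paraquat, 12, 26 and 9 lost the call and 0 changed sign. Over all genes, the counts that moved by more than 1.5 times were MPP 2034 to 3983, Ziram 100 to 586, Rotenone 1041 to 211, 6-HD 2 to 1 and MPP against Paraquat 2070 to 3541 with the 2 groups alone, Ziram 100 to 181, 6-HD 2 to 11 and Methylmercury 54 to 341 with DESeq2, Paraquat 0 to 3, Ziram 100 to 160, 6-HD 2 to 18 and Methylmercury 54 to 249 with no filter, and 6-HD 2 to 0 with the replicate block. The cause of these differences was not tested.

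With the replicate block, MS275 against DMSO gave 20, MPP 6, Rotenone 1, the other toxicants 0, MS275 against MPP 22, MS275 against Paraquat 20 and MPP against Paraquat 6, the same genes as without it. In the other 8 comparisons the numbers did not pair the libraries by the check of correlations, and 9 of 24 libraries correlated best with their own number. Counts depend on 9.69 to 46.9 megareads per library, and for HDAC10, under 1 CPM in all DMSO libraries, no change within the width of its interval was detectable.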
